A study of Homo sapiens with 3 samples.

Results

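The genes described here are 5 members of the POU family of transcription factors: POU3F1, POU3F2, POU3F3 and POU3F4, which form the neural class 3, and POU2F2, a class 2 member. For each gene, every accessible region was taken that had a summit inside the RefSeq gene body or within 100 kb of its outer ends. This gave 59 regions with 132 summits, of 65234 regions and 145092 summits in the whole list. The rule uses position only, and no measured value.

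The cells were neurons obtained in 14 days with the neurogenic factor NGN2 from KOLF2.1J, a widely shared human iPSC line. The study looked for regulatory elements of MAPT and compared no treatment or genotype in this assay: all 3 ATAC-seq replicates carry the same label and come from 1 cell line. In ATAC-seq, Tn5 transposase cuts accessible DNA and tags it for sequencing, so open regions collect more tags than their surroundings. The authors deposited 1 list of accessible regions for all 3 replicates together. Values of single replicates are not in it, so no error between replicates can be given, and the depth of each library is not known from it.

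POU factors bind DNA through a POU-specific domain and a homeodomain joined by a flexible linker, and the classical target is the octamer motif. Class 3 genes are expressed in the developing nervous system, where they often act with SOX and proneural bHLH factors on shared enhancers. POU3F2 (BRN2) is used, together with other neural factors, to convert fibroblasts to neurons, and with POU3F3 (BRN1) it is needed for upper-layer cortical neurons. POU3F1 (OCT6, SCIP) is best known for Schwann cell myelination, and POU3F4 (BRN4) for the inner ear and the basal forebrain. POU2F2 (OCT2) is a B-cell factor that is also expressed in neurons.

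The labelled cell type was checked on marker genes. Among neuronal markers, all 6 of the 10 listed genes with a start in the promoter table (MAP2, RBFOX3, TUBB3, SYT1, DCX and GAP43) had a summit within 1 kb of a start. The share was 72.3% over all protein-coding genes with a listed start. Any listed start of a gene counted, and these markers had from 1 (SYT1 and GAP43) to 12 (RBFOX3). Counted by either outer end of the gene, 9 of 10 neuronal markers had a summit within 1 kb, against 1 of 4 markers of pluripotent cells (LIN28A), 2 of 4 of glia (AQP4 and OLIG2) and 1 of 4 of B cells (PAX5). Of all protein-coding genes, 68.8% had a summit at an outer end. NANOG and CD79A, markers of pluripotent cells and B cells, had no accessible start or end. DPPA4, AQP4 and PAX5 had accessible starts with 160 to 269 tags at the strongest summit. Among the 6 neuronal starts, RBFOX3 with 159 tags and DCX with 252 did not exceed that range. GAP43 (675 tags), SYT1 (1185), MAP2 (1219) and TUBB3 (1315) did. The strongest summit of the TUBB3 region lay 1314 bp downstream of the start it was counted for. That is beyond the 1 kb limit, which a weaker summit of the region met. Accessibility of a start is not a measure of expression, and fewer cells with an open site cannot be told apart from a less open site in every cell.

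All 5 genes had an accessible start, meaning a summit within 1 kb of the start that RefSeq lists for them. The same was true of 72.3% of the 15843 protein-coding genes with a listed start, so that 5 of 5 is not far from the background. The 5 were also accessible with a limit of 500 bp (background 71.2%), with 2 kb (74%), with only entries of a score of at least 830 (70.9%) and by any overlap of the region with 1 kb around the start (72.9%). At POU2F2 the limit of 500 bp was met only by the weakest summit of its region, 404 bp upstream with 96 tags. At the 4 class 3 genes the strongest summit lay 78 to 237 bp upstream of the start, inside the promoter sequence itself. A summit just upstream was usual: over 11462 accessible starts the median position was -54 bp (quartiles -114 and -6 bp, negative meaning upstream). The sequences of the 250 bases before each start are shown because the strongest summit falls within them at all 4 class 3 genes but not at POU2F2. They are from RefSeq, GRCh38.p14, written 5′ to 3′ on the strand of the gene, and capitals mark the word CCAAT, or its reverse complement ATTGG.
POU3F1 (chr1:38046794-38047043, minus strand): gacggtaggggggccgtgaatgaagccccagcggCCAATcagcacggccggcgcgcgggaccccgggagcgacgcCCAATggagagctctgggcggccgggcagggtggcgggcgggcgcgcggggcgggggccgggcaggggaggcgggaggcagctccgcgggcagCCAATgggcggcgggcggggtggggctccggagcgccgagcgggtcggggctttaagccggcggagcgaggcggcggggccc
POU3F2 (chr6:98834324-98834573, plus strand): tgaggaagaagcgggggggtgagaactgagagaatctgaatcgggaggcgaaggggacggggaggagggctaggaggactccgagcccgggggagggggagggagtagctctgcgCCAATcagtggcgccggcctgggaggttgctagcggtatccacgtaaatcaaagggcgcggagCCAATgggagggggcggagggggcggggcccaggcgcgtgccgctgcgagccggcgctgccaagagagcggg
POU3F3 (chr2:104853865-104854114, plus strand): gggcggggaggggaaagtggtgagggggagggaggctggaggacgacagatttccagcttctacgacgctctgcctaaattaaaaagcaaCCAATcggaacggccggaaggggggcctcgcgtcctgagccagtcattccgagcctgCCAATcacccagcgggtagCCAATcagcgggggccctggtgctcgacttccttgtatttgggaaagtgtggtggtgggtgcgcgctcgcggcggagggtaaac
POU3F4 (chrX:83508040-83508289, plus strand): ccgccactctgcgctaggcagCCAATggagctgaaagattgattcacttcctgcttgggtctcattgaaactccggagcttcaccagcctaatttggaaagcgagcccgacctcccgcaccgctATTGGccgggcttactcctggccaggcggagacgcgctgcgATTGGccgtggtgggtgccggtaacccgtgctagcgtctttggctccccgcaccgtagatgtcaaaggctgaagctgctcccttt
POU2F2 (chr19:42132447-42132696, minus strand): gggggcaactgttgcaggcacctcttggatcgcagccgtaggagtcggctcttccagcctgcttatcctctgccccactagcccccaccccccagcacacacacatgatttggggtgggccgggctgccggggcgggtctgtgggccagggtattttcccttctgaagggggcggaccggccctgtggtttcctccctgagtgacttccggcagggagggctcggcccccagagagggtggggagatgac

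The CCAAT word, the core of the box bound by the general promoter factor NF-Y, occurred 3 times in the promoters of POU3F1, POU3F3 and POU3F4 and 2 times in that of POU3F2, and was not found in that of POU2F2. It was read on the strand of the gene in POU3F1, POU3F2 and POU3F3. In POU3F4, 1 of the 3 copies was read on the strand of the gene and 2 on the opposite strand. Counting both strands over 300 bases (250 before to 50 after the start), at least 1 copy was present in 35.7% of the promoters of 27305 genes and at least 2 copies in 11.3%. At least 3 copies were present in 3.42%. Among 7 other POU genes with a listed promoter (POU1F1, POU2F1, POU4F1, POU4F2, POU4F3, POU5F2 and POU6F1), 0 held the word. This word was picked after the sequences had been read, and its counts are a description only.

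The strongest summit of POU3F3 lay 4 bp from the centre of the nearest CCAAT copy, and that of POU3F4 lay 15 bp from it. For POU3F1 and POU3F2 the nearest copies were 23 and 33 bp away. No background is given here for these distances. The octamer ATGCAAAT, which POU factors bind, was not found on either strand in the 300 bases of any of the 5 promoters, against 1.8% of all promoters. The E-box CAGATG (14.8% of all promoters), the SOX word ACAATG (11%), the homeobox word TAATTA (4.98%) and the core word of the CTCF motif (1.77%) were also not found in the 5. Both strands were searched, and no word searched is part of another. The absence of letters from these windows says nothing of binding elsewhere. The promoters differed in composition. POU3F1 had a GC content of 82.3% and 49 CpG dinucleotides (percentile 98.1 among protein-coding promoters), POU2F2 had 66.7% and 12 CpG, and the other 3 had 59.3 to 68.3% and 19 to 24 CpG, near the coding median of 22.

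**Figure D1:**
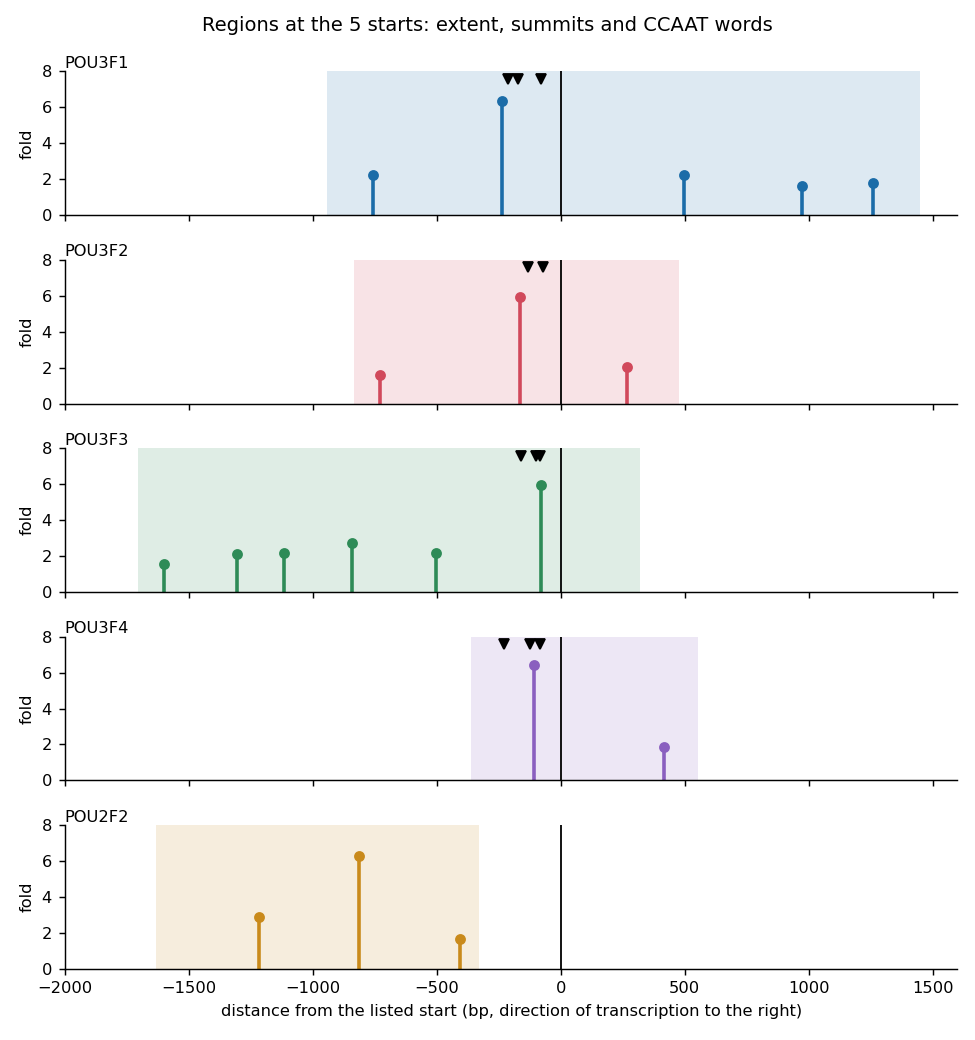
Regions at the 5 starts, plotted by distance from the start in bp with transcription to the right: the shaded band is the extent of the region, each stem a summit with its fold enrichment (linear), and each triangle a CCAAT word. The strongest summit sits just upstream of the start in the 4 class 3 genes, near the triangles, and 814 bp upstream in POU2F2, where the region ends before it reaches the start.

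The region at the POU3F1 start (chromosome 1, 38045344 to 38047737) was 2394 bp wide with 5 summits, and its width stood at percentile 98.5 among 11462 accessible starts of protein-coding genes. Its strongest summit, 237 bp upstream, had a fold enrichment of 6.37, the authors' ratio of tags at the summit to the local background. Further summits, at 756 bp upstream and 498, 972 and 1261 bp downstream, had fold enrichments of 1.61 to 2.25. The region therefore reached well into this intronless gene. MIR3659HG, a long noncoding RNA that runs the opposite way, has its start within 1 kb of the same region, so the region cannot be assigned to POU3F1 alone.

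The region at the POU3F2 start (chromosome 6, 98833739 to 98835052) was 1314 bp wide, close to the median of 1330 bp. Its 3 summits lay 727 bp upstream, 166 bp upstream and 267 bp downstream, with fold enrichments of 1.56, 5.95 and 2.03. The region at the POU3F3 start (chromosome 2, 104852411 to 104854435) was 2025 bp wide with 6 summits. The strongest, 78 bp upstream, had a fold enrichment of 5.96, and the other 5 extended to 1601 bp upstream with fold enrichments of 1.55 to 2.75. The same region lies within 1 kb of an outer end of PANTR1, a long noncoding RNA next to POU3F3. This region too cannot be assigned to POU3F3 alone. The RefSeq body of POU3F3 begins at 104853276, before the listed start at 104854115, and holds the strongest summit. At POU3F3 the secondary summits were thus all upstream, at POU3F1 mostly downstream.

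POU3F4 had the narrowest of the 5 regions (chromosome X, 83507927 to 83508845), 919 bp wide (percentile 9.25) with 2 summits. The summit 109 bp upstream had a fold enrichment of 6.42 and the one 416 bp downstream 1.85. The region nearest to the listed POU2F2 start (chromosome 19, 42132776 to 42134076) was 1301 bp wide and had summits 404, 814 and 1215 bp upstream, with fold enrichments of 1.68, 6.29 and 2.88. It did not overlap the 250 bases printed above. It also covered part of LNROP, a long noncoding RNA that starts near the POU2F2 start and runs the opposite way, and a distance of 814 bp or more upstream was rare among accessible starts (percentile 2.03). The region therefore cannot be assigned to POU2F2 alone, and neither can its fold enrichment and tags.

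The fold enrichments at the 5 starts were almost the same, but the numbers of tags were not. Fold enrichment was lowest at POU3F2, 5.95, and highest at POU3F4, 6.42, and the 95% counting intervals of all 5 overlapped. They ran from 5.67 to 6.23 at POU3F2, from 5.70 to 6.22 at POU3F3, from 5.93 to 6.84 at POU3F1, from 5.95 to 6.91 at POU3F4 and from 5.66 to 6.97 at POU2F2. All 5 stood low among accessible starts, at percentiles 15.4 to 18.1, where the median fold enrichment was 10.9. Percentile here means the share of accessible starts with a lower value, with equal values split evenly between lower and higher.

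Tag counts at the same summits were solved for from each entry's fold enrichment and p-value. POU3F3 had 2039 tags (exact Poisson 95% interval 1951 to 2129) and POU3F2 had 1791 (1709 to 1876). POU3F1 had 764 (711 to 820), POU3F4 had 706 (655 to 760) and POU2F2 had 362 (326 to 401). POU3F3 exceeded POU3F2 by a ratio of 1.14 (exact 95% interval 1.07 to 1.21), POU3F2 exceeded POU3F1 by 2.34 (2.15 to 2.55), and POU3F4 exceeded POU2F2 by 1.95 (1.72 to 2.22). POU3F1 and POU3F4 did not differ beyond counting error, with a ratio of 1.08 (0.976 to 1.20). These intervals cover counting error only: tags from PCR-amplified libraries are not independent molecules, and the spread between replicates is not in the list. POU3F4 is on the X chromosome and the other genes are on autosomes. Tags were not adjusted for the number of copies per cell, so ratios with POU3F4 do not compare openness per copy.

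In tags, POU3F3 and POU3F2 stood at percentiles 91.6 and 86.1 of accessible starts, POU3F1 and POU3F4 at 36.5 and 33.0, and POU2F2 at 14.0. The median over accessible starts was 994 tags. The difference between the measures lies in the denominator. The local background, the mean tag level of the 10 kb around a summit, was 341 tags at POU3F3 (percentile 99.9) and 300.4 at POU3F2 (percentile 99.5), which is 11.7 and 10.3 times the lowest background in the list. It was 119 tags at POU3F1, 109 at POU3F4 and 56.7 at POU2F2, against a median of 88.4. POU3F2 and POU3F3 thus had high starts and a high mean over the surrounding 10 kb. The start region is itself part of these 10 kb, so this mean does not measure the neighbourhood apart from it.

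**Figure D2:**
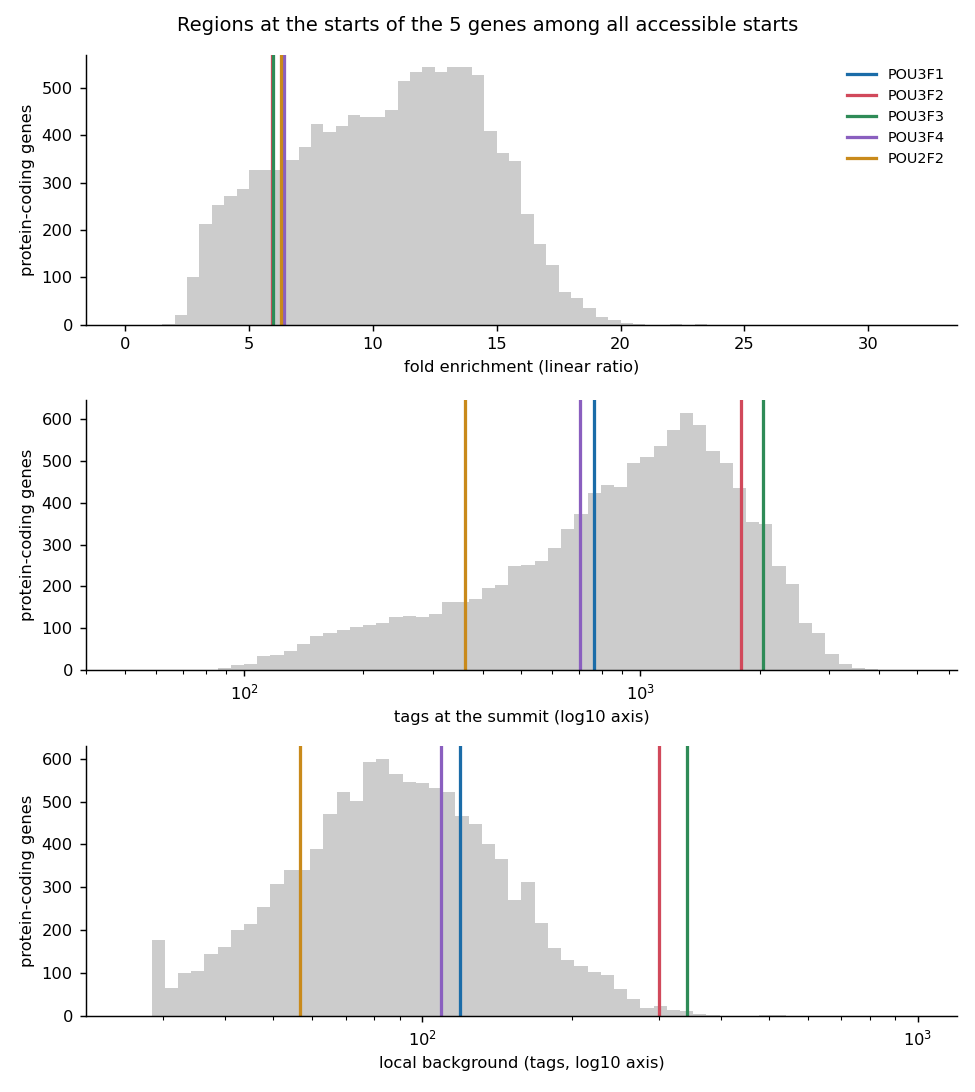
Fold enrichment, tags at the strongest summit and local background in tags (lower panels on log10 axes) for the accessible starts of 11462 protein-coding genes as grey bars, with a coloured line for each of the 5 genes. The 5 lines fall together between 5.95 and 6.42 in fold enrichment, where those of POU3F2 and POU3F3 overlie each other, and spread from 362 to 2039 in tags.

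The windows of the 5 genes differed widely in how many regions they held. POU2F2 had 22 regions with 40 summits, POU3F1 had 13 with 31, POU3F3 had 12 with 33, POU3F2 had 9 with 22 and POU3F4 had 3 with 6. Windows drawn the same way around all 20037 protein-coding genes held a median of 8 regions. Because the genes differ in length, the windows spanned 203 to 312 kb, and per Mb the order was 70.6 regions for POU2F2, 64.1 for POU3F1, 43.9 for POU3F2, 43.7 for POU3F3 and 14.7 for POU3F4, against a median of 30.2. POU2F2 and POU3F1 stood at percentiles 95.7 and 93.0 by this density and POU3F4 at 14.2. The 3 regions of POU3F4 were closer to the median of 4 for 848 protein-coding genes of the X chromosome.

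The regions divided into 5 at the start of the gene itself, 20 within 1 kb of a start or outer end of another annotated gene, and 34 distal ones. Over the whole list 70.5% of regions were distal in this sense, and for these windows the share was 57.6%. Of the 22 regions of POU2F2, whose window touches 9 other protein-coding genes, 11 lay at another gene. Of the 9 regions of POU3F2, whose window touches 1, 1 lay at another gene and 7 were distal. In distal regions per Mb, POU3F1 (39.4), POU3F2 (34.2), POU2F2 (32.1) and POU3F3 (25.5) were all above the median of 14.7, at percentiles 96.1, 92.5, 90.3 and 81.2. POU3F4 had 9.81 (percentile 33.0).

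**Figure D3:**
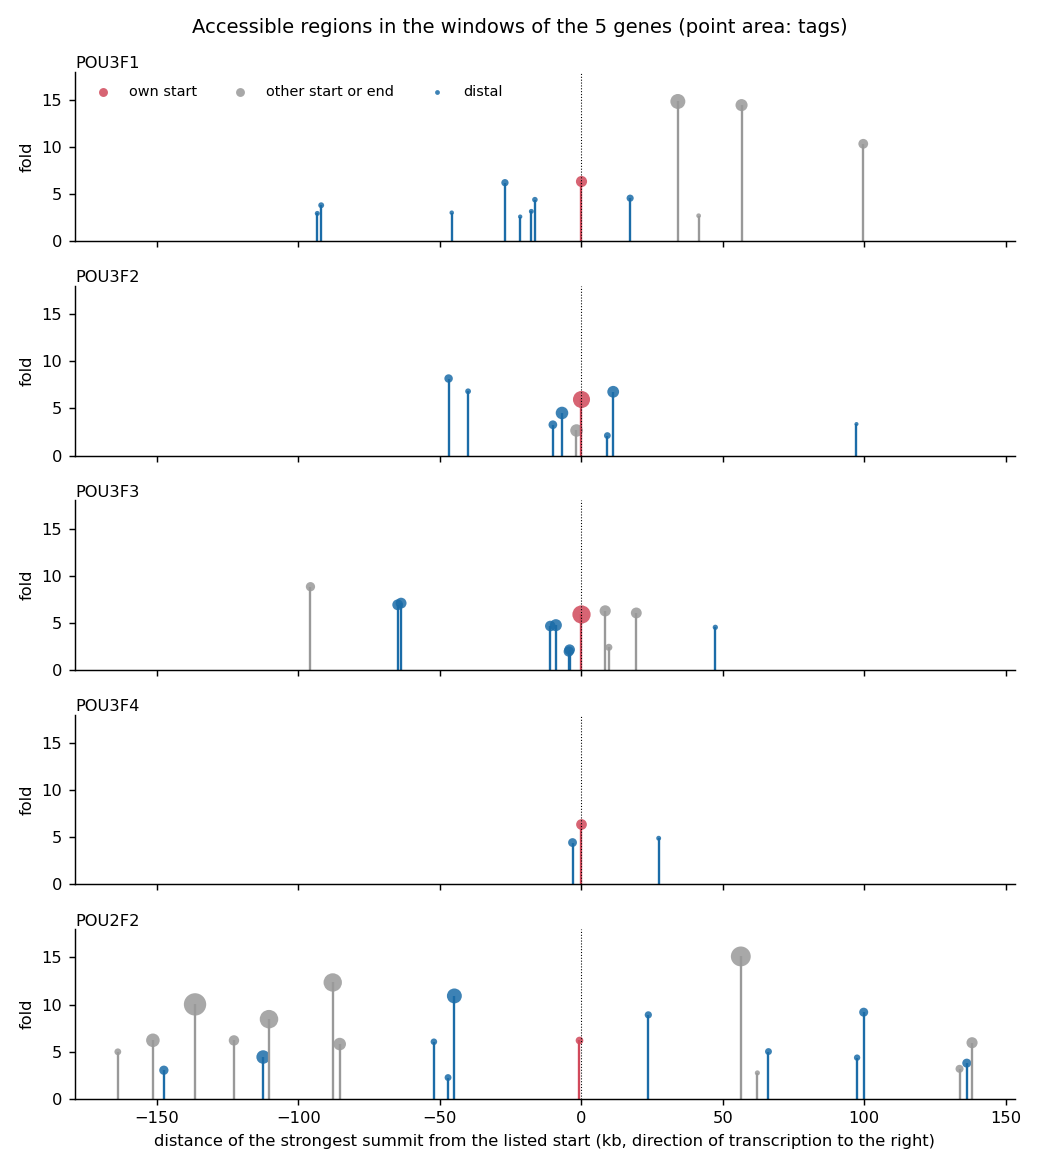
Accessible regions in the 5 windows by distance from the listed start in kb (transcription to the right) and by fold enrichment (linear), with point area in proportion to tags and colour for regions at the gene's own start, at another gene's start or end, and distal. POU3F2 has 6 regions and POU3F3 has 8 within 20 kb of the start. The tallest stem is at another gene's start for POU3F1, POU2F2 and POU3F3, distal for POU3F2 and at the gene's own start for POU3F4.

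POU3F2, a gene of 4.89 kb on chromosome 6, had 6 regions within 20 kb of its start, spread over 21.3 kb. Upstream they were centred 10.0 kb away (98823968 to 98824885, 4 summits, fold enrichment 3.27, 466 tags), 6.79 kb away (98827383 to 98828134, 2 summits, 4.51, 969 tags) and 1.88 kb away (98832424 to 98833613, 2 summits, 2.67, 962 tags). The last of these has a summit within 1 kb of the start of PNKY, a long noncoding RNA of neural stem cells that is transcribed away from POU3F2. Downstream of the gene lay a region 9.25 kb from the start (98843343 to 98844082, 2 summits, fold enrichment 2.12, 283 tags) and another 11.3 kb from it (98844848 to 98846127, 4 summits, 6.76, 854 tags). Apart from the start region, no summit fell inside the gene.

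Further from POU3F2, the region with the highest fold enrichment of its window lay 46.9 kb upstream (98787262 to 98788668, 3 summits, fold enrichment 8.17, 440 tags), followed by one 39.98 kb upstream (98794340 to 98794901, 1 summit, 6.82, 205 tags). Both are in sequence without an annotated gene. The remaining region, 97.3 kb downstream inside FBXL4 (98931724 to 98932024), was the weakest in tags, with 100 tags and a fold enrichment of 3.34. By tags the start region ranked first of the 9, by fold enrichment it ranked 4.

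POU3F3, on chromosome 2, spans 74.5 kb in RefSeq. It had 8 regions within 20 kb of the listed start, spread over 30.4 kb and covering 9.22 kb together. The 7 besides the start region placed it at percentile 99.9 of 15843 genes, and the 5 of POU3F2 at percentile 98.97. POU3F1 had 3 (percentile 91.7), POU3F4 had 1 (the median) and POU2F2 had 0. The 20 kb window was chosen after the positions had been seen.

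Upstream of POU3F3, 4 regions lay within PANTR1, a long noncoding RNA that runs the opposite way. They were 10.9 kb from the start (104842338 to 104843891, 6 summits, fold enrichment 4.66, 687 tags), 8.95 kb (104844406 to 104845536, 2 summits, 4.75, 883 tags), 4.39 kb (104849631 to 104849827, 1 summit, 1.96, 651 tags) and 4.09 kb (104849889 to 104850156, 1 summit, 2.15, 704 tags). The 2 nearest were only 197 and 268 bp wide. In the region 4.39 kb upstream the fold enrichment stood at percentile 0.13 of all regions and the tags at percentile 82.6. In the region at PNKY, next to POU3F2, these percentiles were 1.78 and 89.0.

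Within the body of POU3F3, regions were centred 8.49 kb (104861813 to 104862977, 3 summits, fold enrichment 6.27, 769 tags), 9.77 kb (104863493 to 104864281, 3 summits, 2.40, 309 tags), 19.5 kb (104871862 to 104873953, 5 summits, 6.05, 726 tags) and 47.4 kb downstream of the start (104901132 to 104901836, 2 summits, 4.52, 170 tags). The first 2 have a summit within 1 kb of an end of LOC124908045, a predicted coding gene, and the third lies at the start of LINC01159. The region at LINC01159, a noncoding gene nested in POU3F3, was 2092 bp wide. At a greater distance upstream, 2 adjoining regions 64.9 and 63.7 kb away (104788818 to 104789541 and 104789808 to 104790805) had fold enrichments of 6.91 and 7.09 with 716 and 725 tags. The highest fold enrichment of the window, 8.84 with 527 tags, was 95.7 kb upstream at the start of LINC01114 (104758071 to 104758913).

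Regions with few-fold enrichment and many tags recurred in these windows. A fold enrichment below the median of all regions (5.60) together with more than 458 tags, the upper quartile, was found in 1.76% of all regions. It was found in 3 of 9 regions of POU3F2, 4 of 12 of POU3F3, 1 of 3 of POU3F4, 3 of 22 of POU2F2 and 0 of 13 of POU3F1, in all 11 of 59 (18.6%). This pair of limits was chosen after the values had been seen, so the shares are a description.

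**Figure D4:**
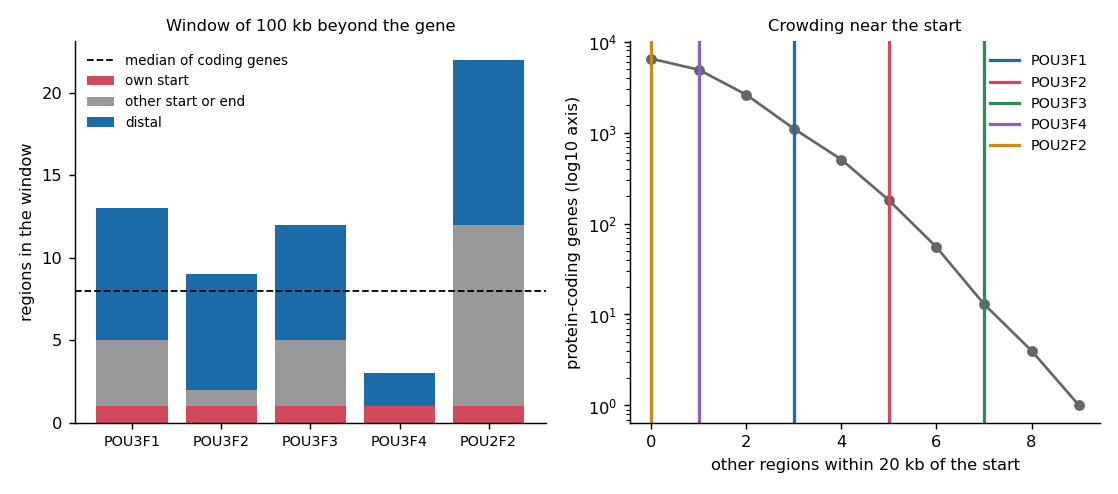
Left, regions in each window as stacked bars, at the gene's own start, at another gene's start or end and distal, with the median of 8 for all protein-coding genes as a dashed line. Right, the number of protein-coding genes (log10 axis) by how many other regions lie within 20 kb of the start, with a line for each gene: POU3F3 is at 7, POU3F2 at 5 and POU2F2 at 0.

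The window of POU3F1, a gene of 2.97 kb on chromosome 1, was led by neighbouring genes. The 3 highest fold enrichments were at the starts of UTP11, a ribosome biogenesis factor (38012138 to 38013233, 14.8, 1374 tags), SF3A3, a splicing factor subunit (37989379 to 37990521, 14.4, 898 tags), and INPP5B, an inositol phosphatase (37946227 to 37947427, 10.3, 590 tags). All 3 lie downstream of POU3F1. The region at the start of FHL3 (38005171 to 38006337) had a fold enrichment of 2.69 and 135 tags. The POU3F1 start ranked 4 of 13 by fold enrichment and 3 by tags.

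Of the 8 distal regions of POU3F1, 1 lay downstream, 17.3 kb from the start (38028637 to 38030470). It was 1834 bp wide, with 5 summits, a fold enrichment of 4.56 and 314 tags. All 7 others lay upstream. Those at 16.4 kb (38062863 to 38063290, fold enrichment 4.39, 191 tags), 17.6 kb (38063889 to 38064724, 3.16, 148 tags), 21.6 kb (38068113 to 38068585, 2.59, 115 tags), 26.95 kb (38073237 to 38074432, 6.20, 327 tags) and 45.8 kb (38092386 to 38092865, 3.02, 122 tags) were inside MIR3659HG. Those at 91.9 kb (38138379 to 38139049, 3.804, 213 tags) and 93.3 kb (38139889 to 38140488, 2.94, 154 tags) were inside LINC02786. The distal regions of POU3F1 were thus numerous, but all except the one 26.95 kb upstream had a fold enrichment below 5.06, the median of all distal regions. With only entries of a score of at least 830, 9 of the 13 regions of this window remained.

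POU3F4, a gene of 3.84 kb on chromosome X, had 2 regions besides its start. The first lay 3.06 kb upstream (83504783 to 83505429, 2 summits), inside the noncoding gene LOC107985635. Its fold enrichment was 4.44 and its tag count 480. The second lay 27.4 kb downstream (83535315 to 83536194, 2 summits) where the fold enrichment was 4.90 and the tags numbered 147. No other protein-coding gene lies in this window. The background was 109 tags at the start and 29.2, the floor of the list, at the downstream region, so among its 3 regions the background was above the floor at the pair next to the start.

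POU2F2, which spans 111.8 kb on chromosome 19, had 5 regions with a summit in its body. The strongest was not the one nearest to the listed start but a region 44.8 kb upstream of it (42176375 to 42177777, 3 summits), with a fold enrichment of 10.9 and 1367 tags (1295 to 1441), against 6.29 and 362 tags (326 to 401) at the start. The RefSeq gene extends upstream past this region, and no listed start or outer end of a gene lies within 1 kb of it. Further upstream in the body were regions at 47.1 kb (42179344 to 42179685, 1 summit, fold enrichment 2.25, 289 tags) and 52.1 kb (42184198 to 42184852, 2 summits, 6.06, 264 tags). The fifth, 23.7 kb downstream (42108251 to 42109386, 1 summit), reached a fold enrichment of 8.91 with 319 tags.

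Outside the gene lay 17 regions of the POU2F2 window. The highest fold enrichment, 15.1 with 2426 tags, was at the start of the zinc finger gene ZNF574 (42075547 to 42076580), and the second, 12.3 with 2070 tags, between DEDD2 and ZNF526 (42219844 to 42220711). The region with the most tags of all 59, 3066 (2958 to 3176), was at the start of CIC, a transcriptional repressor (42267982 to 42269375, fold enrichment 10.0). The start of GSK3A, a kinase gene, had 2101 tags (42242333 to 42243438, 8.45). The remaining 13, the GRIK5 start among them, had fold enrichments of 2.75 to 9.19. By tags the POU2F2 start ranked 15 of 22. The regions below it included that at the start of GRIK5, a kainate receptor subunit gene, which had the fewest tags of the window (42069728 to 42070493, 159 tags, fold enrichment 2.75).

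Members just inside and just outside the 100 kb limit were as follows. For POU3F1 the outermost counted summit lay 97.4 kb beyond the gene, in the INPP5B region, and the next one outside lay at 112.0 kb (37931210 to 37932288, fold enrichment 16.2). For POU3F2 the limits fell between 92.4 kb and 107.6 kb (98946950 to 98948499, 7.93), and for POU3F3 between 94.9 kb and 109.9 kb (105037415 to 105038717, 16.7). For POU3F4 they fell between 23.9 kb and 174.0 kb (83333675 to 83334338, 5.43), and for POU2F2 between 98.3 kb and 104.2 kb (42301842 to 42303363, 10.7). A slightly larger window would thus add strong regions at POU3F1, POU3F3 and POU2F2.

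The remaining human POU genes gave a range at their starts that enclosed the 5. Of the 7 with a listed start, 5 were accessible (POU2F1, POU4F1, POU4F2, POU4F3 and POU6F1), while POU1F1, the pituitary factor, and POU5F2 were not. By outer ends 7 of 11 were accessible, POU1F1 among them, against 68.8% of all protein-coding genes. POU2F1 (OCT1), which is expressed in most tissues, had a fold enrichment of 11.0 and 2430 tags. POU4F1 (BRN3A), a sensory neuron factor, had 9.88 and 880 tags, and POU6F1 had 7.59 and 404. POU4F2 and POU4F3, retinal and inner ear factors, had 4.41 with 453 tags and 3.34 with 184. The median fold enrichment of these 5 was 7.59, that of the 5 genes described here 6.29 and that of all accessible starts 10.9.

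Genes known to work with POU factors were listed as partners and targets. All 4 partners with a listed start were accessible: SOX2 (fold enrichment 5.08, 856 tags), PAX6 (8.18, 1368 tags), NEUROG2 (8.67, 1175 tags) and MYT1L (8.84, 628 tags). The PAX6 values are from a summit 1326 bp downstream of the start it was counted for. A weaker summit of that region met the 1 kb limit. NEUROG2 is the gene of NGN2, the factor with which these neurons were obtained. By outer ends, SOX10, a neural crest factor, and POU2AF1, the B-cell coactivator of octamer factors, had no summit within 1 kb. Of 7 targets, 5 had a listed start and all 5 were accessible. By outer ends 4 of 7 targets were accessible, and FABP7, EGR2 and CD36 had no summit within 1 kb of either end. FABP7, a radial glia gene, had a fold enrichment of 14.0 and 1988 tags, and MITF, the melanocyte factor, 14.0 and 1378 tags. EGR2, a myelination factor downstream of POU3F1, had 8.62 and 1399 tags, CD36 had 5.17 and 173 tags, and NES, the neural progenitor filament, 3.96 and 775 tags. Against backgrounds of 72.3% by start and 68.8% by outer end, these counts are not a result about the lists. SOX2 and NES had high local backgrounds and low fold enrichments, at percentiles 91.0 and 94.97 of accessible starts for the background and 10.4 and 4.93 for the fold enrichment. Their tags, at percentiles 42.2 and 37.2, were below the median, unlike those of POU3F2 and POU3F3.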

How the data were processed

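ATAC-seq of 3 replicates, 1 group, was analysed from 1 pooled list of peaks, which the labels name as the optimal set by irreproducible discovery rate. The build is hg38 per the submitters' processing notes; the aligner, caller and filters are not given in the sources used here. The authors deposited a fold enrichment (linear ratio) for each summit. The deposited list also has a −log10 p for every summit and a score from 540 to 1000 per entry, whose scaling is not stated in the labels; its q-values were not used.

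Entries of identical extent were joined as 1 region, with the values of its summit of highest −log10 p. Tag counts were recovered as the whole number for which fold enrichment, with a pseudocount of 1 on tags and background, gave the −log10 p as a Poisson upper tail. The largest miss was 0.00079. Backgrounds had a floor of 29.2 tags, and above it 99.8% were within 0.0005 of a multiple of 0.015, the share of 1 tag of 150 bp in 10 kb. Fold enrichment is therefore relative to the surrounding 10 kb, region included, and is low where much of it is open.

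Starts and promoters came from RefSeq tables of GRCh38.p14, which are not complete; all 5 genes matched, each with 1 start. Regions were set beside all protein-coding genes as percentiles, with no test, since there is no value per sample. Intervals are 95%, exact Poisson for tags and exact binomial for ratios. The genes, lists and windows were chosen with earlier results of these data known. Every region within 1 kb of a start or in a body, the 3 highest of each window and those at its limit are named, and, beyond this rule, all regions of the class 3 genes. In the POU2F2 window the CIC, GSK3A and GRIK5 regions were named after their values were seen. Alternatives were a score of at least 830, other windows, overlap by 1 bp, all entries and other summary values. Some genes of the lists are not reported here. Motifs at summits were not searched for lack of a genome sequence. Python 3.11.15, numpy 2.4.6, scipy 1.17.1, pandas 2.3.3 and matplotlib 3.10.9 were used, and the code was tested on simulated data.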

Additional observations from a re-analysis of the deposited data

How the results depend on the processing

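Of 77 recomputed values for 20 results, 49 were within the limit set for them (1.5 times for counts, the counting interval for fold enrichment and percentiles, the binomial interval for the share of promoters) and 28 moved. All 5 starts stayed accessible with 500 bp, with 2 kb, with a score of at least 830 and with any overlap. Of the 5 genes, 4 had an accessible outer end, and POU2F2 did not. At POU2F2 the limit of 500 bp was met only by the weakest summit of its region, 404 bp upstream. With a score of at least 830, any overlap, or the strongest summit only, no count of regions moved by more than 1.5 times. With all summit entries the counts were 31 for POU3F1, 22 for POU3F2, 33 for POU3F3, 6 for POU3F4 and 40 for POU2F2. Above the median fold enrichment they were 5, 4, 6, 1 and 13 in the same order. A window of 50 kb gave 12 for POU2F2, and one of 200 kb gave 20 for POU3F2 and 20 for POU3F3. These follow from how many entries or how much sequence each setting admits.

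The median fold enrichment over all summits of the start region was 2.24 for POU3F1, 2.03 for POU3F2, 2.19 for POU3F3, 4.13 for POU3F4 and 2.88 for POU2F2, since weaker summits are included. The percentile of the start region by −log10 p was 27.8 for POU3F1, 56.3 for POU3F2, 63.0 for POU3F3 and 26.3 for POU3F4. By tags it was 36.5, 86.1, 91.6 and 33.0 in that order, against 17.9, 15.4, 15.5 and 18.1 by fold enrichment. POU2F2 stayed low by both. The share of promoters with at least 2 CCAAT words was 12.5% for protein-coding genes and 13.6% for those with an accessible start. POU3F2 and POU3F3 thus stand low by fold enrichment, which is divided by the local background, and high by tags, which are not. The ranking by tags, the outer ends, the 20 kb window and the CCAAT word were added after seeing the data. Motif words at summits were not run. No paired analysis was possible because the list holds no value per sample, so leaving out a replicate was not possible either.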

Other observations

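Within 1 Mb of the outer ends of POU3F4 there were 13 regions. The same count was 65 for POU3F1, 66 for POU3F3, 71 for POU2F2 and 74 for POU3F2, all on autosomes. Windows drawn this way held a median of 58 regions over 20037 protein-coding genes, among which POU3F4 stood at percentile 1.60, and a median of 34 over the 848 genes of the X chromosome, where it stood at percentile 11.6. This larger window was added after the positions had been seen. As background, long-range enhancers far upstream of POU3F4 are known from deletions that cause deafness. Beyond 100 kb upstream, 5 regions were recorded in these neurons. They lay 174.3 kb (83333675 to 83334338, fold enrichment 5.43, 163 tags), 595.7 kb (82912422 to 82912785, 4.00, 120 tags), 786.2 kb (82721922 to 82722477, 4.60, 138 tags), 796.6 kb (82711439 to 82712064, 9.10, 274 tags) and 801.2 kb (82706906 to 82707463, 4.30, 129 tags) from the start. None of the 5 had a summit inside an annotated gene, and all 5 had a local background at the floor of 29.2 tags. The longest stretch between neighbouring regions, 421.4 kb, was also upstream.

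Downstream of POU3F4, regions lay 251.8, 337.3 and 380.5 kb from the start with 160, 189 and 206 tags, before the start of RPS6KA6, a kinase gene, at 680.2 kb (fold enrichment 7.61, 470 tags) and an end of HDX, a homeobox gene, at 993.6 kb (12.7, 645 tags). In tags, the POU3F4 start, with 706, was the highest of the 13. In fold enrichment it was exceeded by the HDX region, the RPS6KA6 start and 2 of the intergenic regions.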
